A study of Homo sapiens with 4 samples.

Results

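NRSF/REST binding was examined at 10 human genes that encode granins or the proteins that process prohormones in dense-core secretory granules: CHGA, CHGB, SCG2, SCG3, SCG5, VGF, PCSK1, PCSK2, PCSK1N and CPE. They were taken from the 20163 protein-coding genes annotated on hg19, and a binding site was assigned to a gene when it lay in the gene or within 10 kb of either end. Of the 5323 sites called at the basal SF-1 dosage 15 were assigned to these genes, and of the 5059 sites called at the increased dosage 13 were.

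The sites came from H295R/TR SF-1 cells, a clone of the human adrenocortical tumor line H295R in which doxycycline switches on additional SF-1, a nuclear receptor that controls steroid-producing cells. Chromatin was immunoprecipitated with an antibody against NRSF/REST in 1 library from untreated cells, which have the basal SF-1 dosage, and in 1 library from cells given doxycycline for 3 days, which have the increased dosage. The labels also list 2 input DNA libraries, which were not analysed here. Both NRSF/REST libraries come from the same clone, and with 1 library per dosage no value has a replicate check, so differences between dosages describe these libraries and were not tested. Each list gives positions, an order number and a score that is 1000 for every site. They carry no read counts, which leaves the depth unknown. Site width and order number are therefore the only graded values. The order number starts at 1, and wide sites tend to come first, with a Spearman correlation between order and width across sites of -0.95 in both lists, a description over sites of the same library.

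Dense-core granules store peptide hormones and neuropeptides until a stimulus releases them. Granins are acidic proteins that help to form these granules and are themselves cut into peptides, and prohormone convertases and carboxypeptidase E cut and trim the precursors inside them. NRSF/REST is a zinc-finger repressor that keeps neuronal and neuroendocrine genes silent in other cell types by binding a bipartite DNA element, called RE1, and recruiting co-repressors. Granins are abundant in the chromaffin cells of the adrenal medulla, whereas the adrenal cortex, from which H295R derives, secretes steroids.

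The sequences below are the best matches to the RE1 consensus or to its parts in the sites around the 5′ end of the 7 genes that had a site. They are shown because these matches differ in form between the genes. The consensus was written as CTGTCC, 2 free bases and GGTGCTG, and it was searched on both strands. Each line was read 5′ to 3′ from the hg19 reference on the strand that carries the consensus, together with the 4 preceding and the 2 following bases. Capitals mark bases that match the fixed bases of the consensus. The last 4 lines have the same 2 parts at another distance.
CHGA, chr14:93389868-93389888, minus strand: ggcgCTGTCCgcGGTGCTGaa
CHGB, chr20:5892350-5892370, minus strand: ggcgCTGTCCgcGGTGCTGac
VGF, chr7:100808840-100808860, minus strand: ggcgCTGTCCagcGTGCTGaa
PCSK1, chr5:95770015-95770040, minus strand: gtcgCTGTCCagacctcGGTGCTGaa
SCG3, chr15:51973708-51973734, minus strand: agcgCTGTCCgccctgtgGGTGCTGaa
SCG2, chr2:224467077-224467096, minus strand: ggagCTGTCCgtGTGCTGaa
PCSK2, chr20:17207405-17207423, plus strand: ggagCTcTCCGGTGCTGaa

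CHGA and CHGB held the consensus without mismatch. VGF differed from it by G9C, where position 1 is the first consensus base and the consensus base is written first. In PCSK1 both parts were complete but stood 7 bases apart, and in SCG3 they were complete and 8 bases apart. SCG2 had the parts 1 base apart with G9T, and PCSK2 had them 0 bases apart with G3C. For parts at another distance, positions are still those of the same base in the consensus.

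NRSF/REST sites were present at 7 of the genes and 3 had none, with the same split at both dosages. A site was assigned to 7 of 10 genes at the basal dosage, against 13.9% of all protein-coding genes, and to 7 of 10 at the increased dosage, against 13.6%. The genes were chosen with earlier results of these data known, so this contrast is a description. The 7 genes were CHGA, CHGB, SCG2, SCG3, VGF, PCSK1 and PCSK2, and across all protein-coding genes 10.5% had a site at both dosages. SCG5, PCSK1N and CPE had none at either dosage, as did 83.0% of protein-coding genes. Longer genes have more room for a site. With the 10 kb on either side included, the share of protein-coding genes with a site at the basal dosage was 8.57% for windows under 40 kb, 11.3% for windows from 40 kb to under 100 kb and 28.0% for longer ones. At the increased dosage the shares were 8.39%, 10.9% and 27.4%.

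The sites lay close to the starts of the genes. In all 7 genes a site overlapped the 2 kb on either side of the 5′ end at both dosages. Of protein-coding genes, 3.07% had such a site at the basal, 2.97% at the increased and 2.5% at both dosages. Among the protein-coding genes with any site, 22.0% and 21.9% had one that near. A site covered the outermost annotated 5′ end in 6 of the 7 genes at either dosage, PCSK2 being the exception. With the 5′ end of the canonical transcript in its place the count was again 6, with PCSK2 covered and PCSK1 not. The share of all protein-coding genes with a covered 5′ end was not counted, so these counts have no background.

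**Figure D1:**
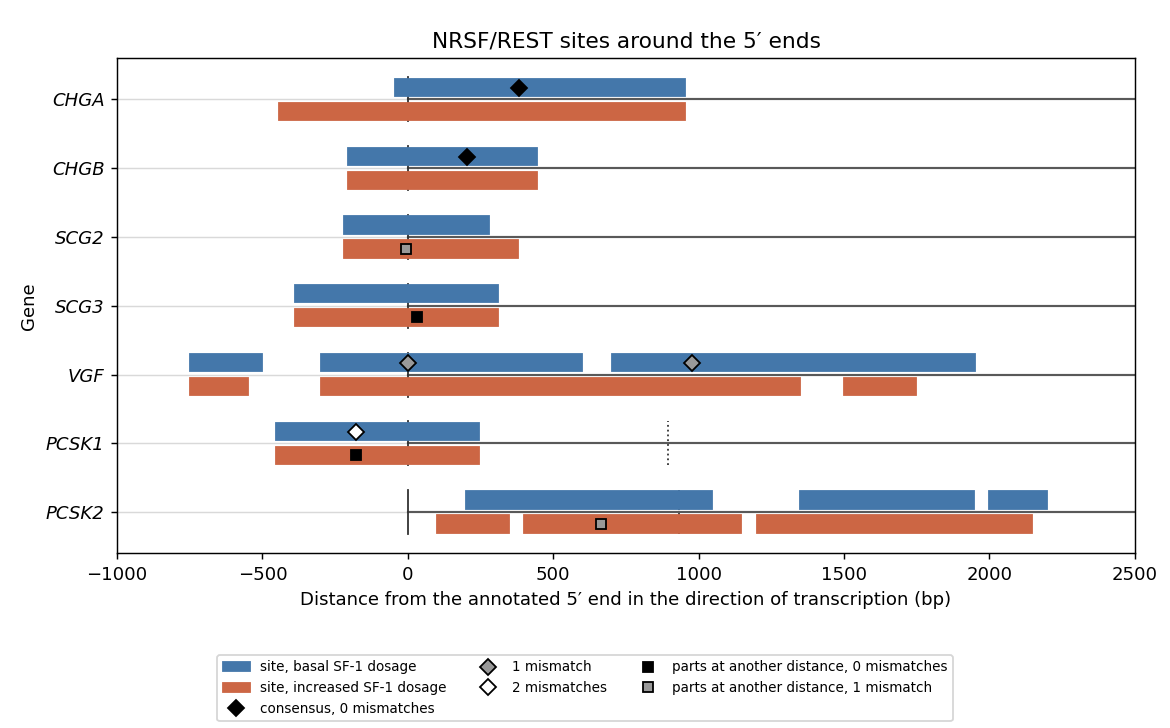
Sites near the 5′ end of the 7 bound genes, drawn to scale with the distance from the outermost 5′ end in bp on the horizontal axis and 1 bar per site for the basal and the increased SF-1 dosage. Diamonds mark matches to the NRSF/REST consensus and squares its parts at another distance, each drawn once although all lie in sites at both dosages, with solid lines at the outermost and dotted lines at the canonical 5′ end of PCSK1 and PCSK2.

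CHGA had 4 sites at the basal and 2 at the increased dosage, and the difference lay in 2 narrow sites, the only ones at these genes that were called at a single dosage. Merging sites within 500 bp joins these 2 to their wide neighbour. CHGA encodes chromogranin A, the major soluble protein of chromaffin granules, and lies at chr14:93389495-93401630 on the plus strand. At the basal dosage a site of 999 bp at chr14:93389451-93390449 covered the 5′ end and reached into intron 1, with order number 129. At the increased dosage the site began further upstream, at chr14:93389051-93390449, measured 1399 bp and had order number 131. The right boundary was thus the same and the site at the increased dosage was 400 bp wider, which is the largest gain among the 8 site pairs of these genes that matched 1 to 1. The consensus printed above lay 382 bp downstream of the 5′ end, in an intron and on the strand opposite to the gene.

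A site about 9 kb upstream of CHGA was also present at both dosages. It covered chr14:93380001-93380999 (999 bp, order number 227) at the basal dosage and chr14:93379951-93380999 (1049 bp, order number 217) at the increased dosage. Its consensus match carried the substitution G12C and lay 8898 bp before the 5′ end:
CHGA upstream site, chr14:93380588-93380608, minus strand: gctgCTGTCCgtGGTcCTGaa
The CHGA sites thus came earlier than most basal sites as wide, of which there were 57 with a median order number of 320. The 5′ end of the long non-coding RNA gene LINC02287 lay nearer to the upstream site than that of CHGA did.

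At the basal dosage 2 narrow sites flanked this upstream site. One measured 99 bp, with its midpoint 9945 bp before the 5′ end and just inside the 10 kb limit, and had order number 4673. The other measured 149 bp, with its midpoint 8070 bp before the 5′ end, and had order number 4751. Neither overlapped a site at the increased dosage, and neither held the consensus. Both fell in the last 25% of the basal order, where 8.94% of all sites had an overlapping call at the other dosage.

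CHGB encodes chromogranin B and lies at chr20:5892156-5905999 on the plus strand. Its single site was identical at both dosages, chr20:5891951-5892599 with a width of 649 bp. The order number was 80 at the basal and 75 at the increased dosage, and the median order number of the sites of this width was 833 and 959. CHGB thus stood far earlier in both lists than most sites as wide as its own. The midpoint fell 119 bp inside the gene, in the 5′ UTR part of exon 1, and the consensus lay 203 bp from the 5′ end in the intron, opposite to the gene.

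SCG3 encodes secretogranin III, a granule membrane-associated granin that binds chromogranin A, and lies at chr15:51973689-52013223 on the plus strand. It too had 1 site with the same boundaries at both dosages, chr15:51973301-51973999 with a width of 699 bp. The order numbers of 52 and 47 were the lowest of the 138 basal and the 143 increased-dosage sites of that width. The site covered the 5′ end, and the 2 complete parts of the consensus, 8 bases apart, lay 31 bp inside the gene in the 5′ UTR. The consensus itself was not found in this site with up to 2 mismatches. The next site in either list began 17.6 kb beyond the gene.

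SCG2 encodes secretogranin II, the precursor of the peptide secretoneurin, and lies at chr2:224461658-224467079 on the minus strand. Its only site measured 499 bp at the basal dosage (chr2:224466801-224467299, order number 917) and 599 bp at the increased dosage (chr2:224466701-224467299, order number 980). It covered the 5′ end at both. The match printed above was centred 6 bp upstream of that end and read in the direction of the gene. No consensus match with up to 1 mismatch was found anywhere in the gene and its 10 kb flanks.

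VGF, a neurosecretory protein that is cut into several bioactive peptides, had sites along much of its short gene. It lies at chr7:100805790-100808850 on the minus strand and had 3 sites at each dosage, as many as PCSK2, which added up to 2397 bp at the basal and 2097 bp at the increased dosage. The basal sites measured 1249, 899 and 249 bp, with order numbers 1052, 289 and 2819. At the increased dosage they measured 249, 1649 and 199 bp, with order numbers 3455, 250 and 3845. The 1649-bp site at chr7:100807501-100809149 overlapped both the basal site over coding exon 2 (chr7:100806901-100808149) and the basal site over the 5′ end (chr7:100808251-100809149). The calls thus divided the same stretch at different points, and no VGF site was without a partner at the other dosage.

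Width and order number parted at VGF. The basal site over coding exon 2 had the highest order number of the 19 basal sites of 1249 bp, whose median was 194. The site over the 5′ end had an order number below the median of 465 for the 65 sites of its width. A further match to the consensus, with T4G, lay in coding exon 2, 976 bp from the 5′ end and in the direction of the gene:
VGF exon 2, chr7:100807865-100807885, minus strand: ggcgCTGgCCgcGGTGCTGct
The match at the 5′ end was centred 1 bp inside the gene, also in the direction of the gene. VGF was therefore the only gene of the 7 with consensus matches of at most 1 mismatch both at the 5′ end and in a coding exon.

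The convertases PCSK1 and PCSK2, the main prohormone convertases of neuroendocrine granules, both had sites. PCSK1 lies at chr5:95726037-95769847 on the minus strand. Its 5′ site was the same at both dosages, chr5:95769601-95770299 with a width of 699 bp, and had order numbers 288 and 252. The complete parts of the consensus were centred 179 bp upstream of the outermost 5′ end. The right-hand part also belongs to a consensus match with T2A and T4A, so a search for the consensus alone finds this site only with 2 mismatches.

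A narrower PCSK1 site lay about 6 kb inside the gene, in intron 2. It measured 299 bp at the basal dosage (chr5:95763501-95763799, order number 2820) and 199 bp at the increased dosage (chr5:95763601-95763799, order number 3698). It held the consensus with G12C and G15A, 6106 bp from the 5′ end and opposite to the gene:
PCSK1 intron 2, chr5:95763730-95763750, plus strand: gtcaCTGTCCgtGGTcCTaat
Both PCSK1 sites overlap a long non-coding RNA gene without a symbol as well.

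PCSK2 lies at chr20:17206752-17465223 on the plus strand and is 258472 bp long, yet its 3 sites at each dosage all had their midpoints within 2098 bp of the 5′ end. Over all protein-coding genes, 1.1% had at least 3 sites at the basal dosage, as CHGA, VGF and PCSK2 did, and 1.04% at the increased dosage, as VGF and PCSK2 did. These counts depend on how the calls were split. Merging sites within 500 bp joins all sites of VGF, all sites of PCSK2 and the upstream sites of CHGA, so none of these genes keeps 3. The background was counted with unmerged sites only. The basal sites measured 849, 599 and 199 bp, with order numbers 909, 1039 and 4334, and began at chr20:17206951, chr20:17208101 and chr20:17208751. At the increased dosage they measured 249, 749 and 949 bp, with order numbers 3926, 1004 and 1013, and began at chr20:17206851, chr20:17207151 and chr20:17207951. Together they covered 1647 and 1947 bp. As in VGF, the division into sites differed between dosages while the stretch covered was nearly the same. The match with the parts 0 bases apart was 663 bp inside the outermost 5′ end and 270 bp upstream of the canonical one, with the canonical start covered at both dosages. A long non-coding RNA gene without a symbol starts just upstream on the minus strand, and its 5′ end was nearer to the site midpoints than the outermost PCSK2 end, though for 5 of the 6 sites not nearer than the canonical one.

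**Figure D2:**
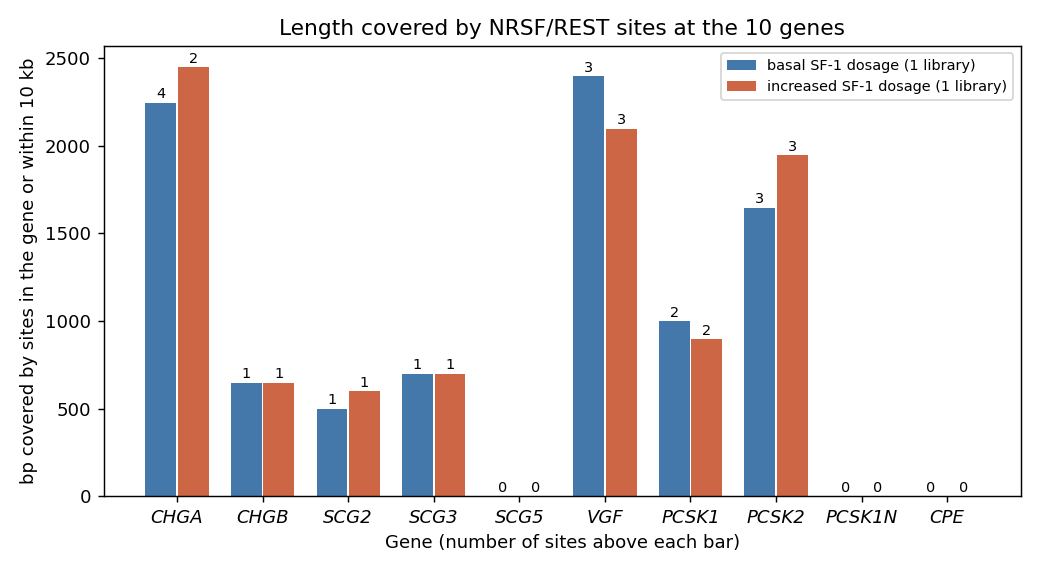
Base pairs covered by NRSF/REST sites at each of the 10 genes at the basal and the increased SF-1 dosage, with 1 library per dosage and no error bars. VGF (2397 and 2097 bp) and CHGA (2246 and 2448 bp) had the most, and SCG5, PCSK1N and CPE had none.

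The 3 genes without a site were the convertase partners SCG5, which encodes the chaperone of the PCSK2 enzyme, and PCSK1N, which encodes an inhibitor of the PCSK1 enzyme, and the carboxypeptidase gene CPE. SCG5 lies at chr15:32933877-32989299, and its nearest site was 564 kb beyond it at the basal and 771 kb at the increased dosage. PCSK1N lies at chrX:48689506-48694012, and its nearest site, of 499 bp, was 159 kb away at both. CPE lies at chr4:166282346-166419699, and its nearest site, of 349 bp at chr4:167000151-167000499, was 580 kb away at both. These genes were thus far from any site and not just outside the 10 kb limit.

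A consensus match was no guarantee of a site. SCG5 contained a match with C5G, 39376 bp from its 5′ end, that lay in no site at either dosage:
SCG5, chr15:32973244-32973264, minus strand: tactCTGTgCtaGGTGCTGtg
Within the genome, 8057 matches had exactly 1 mismatch, and 12.0% of them lay in a basal site and 11.9% in a site at the increased dosage. Of the 816 matches without mismatch, 74.5% and 74.8% did. CPE and PCSK1N had no match with up to 1 mismatch in the gene or its 10 kb flanks, where 24.2% of protein-coding genes had one. The same was true of SCG2, SCG3, PCSK1 and PCSK2, which did have sites. No match means only that these letters are not in these windows.

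With at most 2 mismatches allowed, 7 of the 15 basal sites and 6 of the 13 increased-dosage sites held the consensus. Over all sites the shares were 40.7% and 42.1%, and they were 1.79% and 1.8% in equally wide windows placed 10 kb away. The shares over all sites are not a like comparison, here or in the counts that follow. Of the sites at these genes, 10 of 15 and 9 of 13 stood in the first 25% of the order. In that part of the whole lists 81.7% and 82.5% of sites held the consensus. The sites of SCG2, SCG3 and PCSK2 in that part did not hold it at either dosage. Without mismatch the consensus was found in 2 sites at each dosage, those over the 5′ ends of CHGA and CHGB. Over all sites it was found in 11.2% and 11.8%. At these genes the sites with a consensus belonged to CHGA, CHGB, VGF and PCSK1 at both dosages. Counting also the 2 parts at 0 to 20 bases with at most 1 mismatch in all, 10 of 15 and 9 of 13 sites had a match, in all 7 genes, beside 50.3% and 51.3% of all sites and 3.2% and 3.37% of the windows. This wider search was added after the sequences of these sites had been seen.

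The forms with the parts at another distance were also counted across the genome. Of the 220 complete pairs of parts 8 bases apart, the form seen at SCG3, 34.1% lay in a basal site and 31.4% in a site at the increased dosage. Of the 195 complete pairs 7 bases apart, the form seen at PCSK1, the shares were 15.4% and 16.4%. Parts directly joined, the form at PCSK2, occurred 1962 times with at most 1 mismatch, and 5.81% and 4.99% of them were in a site. Parts 1 base apart, the form at SCG2, occurred 5752 times, and 0.869% and 0.765% were in a site. The last 2 forms were counted with up to 1 mismatch and the first 2 without, so these shares do not compare spacings alone. Each of the 4 forms lay mostly outside called sites, and whether NRSF/REST contacts them at these genes was not tested.

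All 7 genes had a site in the first 25% of the order at each dosage. Of the 15 basal sites 10 were there, as were 9 of the 13 at the increased dosage, and 3 and 2 were in the last 25%. The basal sites had a median width of 649 bp (range 99 to 1249 bp) and the increased-dosage sites one of 699 bp (199 to 1649 bp), beside 299 bp for both whole lists. The early sites were those covering the 5′ ends, or in PCSK2 the canonical 5′ end, together with the upstream CHGA site, the basal VGF exon 2 site and 1 further PCSK2 site. The PCSK2 site nearest the outermost 5′ end at the increased dosage was late, with order number 3926. Sites in the first 25% were wide in general, with a median of 749 bp at both dosages, and 81.7% of the basal ones held the consensus.

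**Figure D3:**
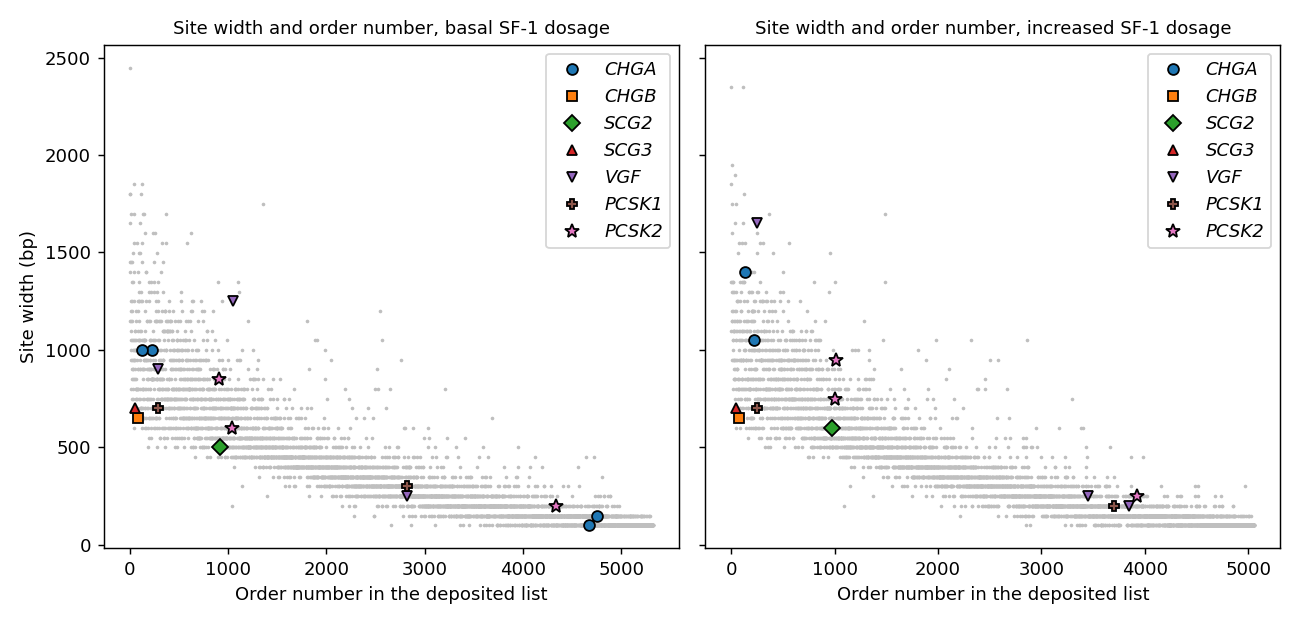
Width in bp against order number for every NRSF/REST site at the basal and the increased SF-1 dosage, in grey, with the sites of the 7 genes marked by gene. Sites at CHGB and SCG3 have low order numbers for their width, and the basal VGF site of 1249 bp has the highest order number of the sites of its width.

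Most sites at these genes were called at both dosages. With 1 bp of overlap required, 13 of the 15 basal sites had a counterpart in the other list, beside 64.5% of the whole basal list. All 13 increased-dosage sites had a basal counterpart, beside 67.9% of their list. Most of these sites stood in the first 25% of the order, where every site of either whole list had a counterpart in the other, so the shares over the whole lists are not a like comparison. Joined across the lists, the sites formed 13 loci, 11 of them at both dosages and 2, the narrow ones upstream of CHGA, at the basal dosage only. No locus was called at the increased dosage only. Among the 8 pairs that matched 1 to 1, 3 were wider, 3 were equal and 2 were narrower at the increased dosage, with a median change of 0 bp, the same median as over all 3327 such pairs.

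**Figure D4:**
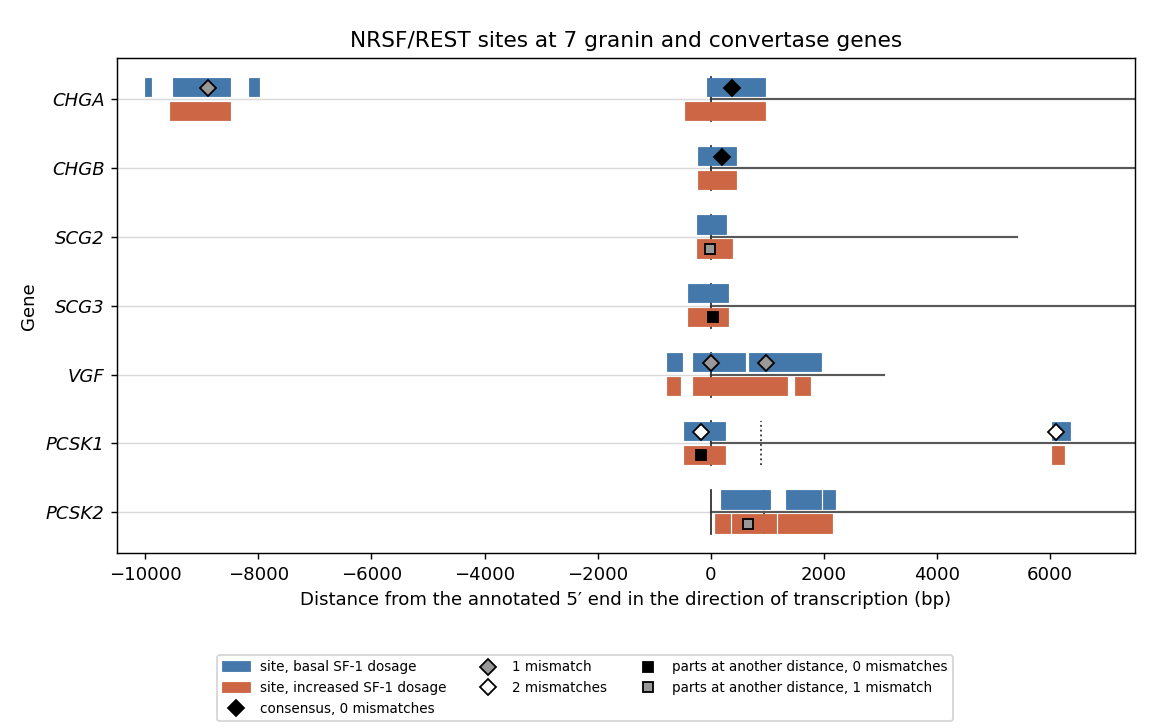
All NRSF/REST sites within each of the 7 bound genes and 10 kb of either end, with the distance from the outermost 5′ end in bp on the horizontal axis and the basal and increased SF-1 dosages on separate lines. Most sites cluster at the 5′ end, with the upstream group at CHGA and the intron 2 site of PCSK1 as the exceptions.

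The sites covered DNA of very different base composition. The G+C content ran from 42.1% at the upstream site of CHGA to 70.9% at exon 2 of VGF at the basal dosage, with a median of 57.8%. At the increased dosage it ran from 39.6% at SCG2 to 75.9% at VGF, with a median of 60.3%. The medians over the whole lists were 45.5% and 45.2%. How far base composition moved the calls was not tested.

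SF-1, the factor whose dosage was raised, recognises CAAGGHCA, where H is any base except G. This motif was found, on either strand and without mismatch, in 1 of the 15 and 1 of the 13 sites, beside 11.4% and 11.5% of all sites and 6.62% and 7.11% of the windows 10 kb away. Both were the CHGA site over the 5′ end, which held CAAGGTCA at chr14:93390052-93390059 and CAAGGCCA on the minus strand at chr14:93390264-93390271. These lay 178 and 390 bp from the NRSF/REST consensus. The letters alone do not show SF-1 binding.

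The related genes were counted in the same way, beside the 13.9% and 13.6% of all protein-coding genes. None of the 5 convertase relatives FURIN, PCSK4, PCSK5, PCSK6 and PCSK7 had a site at either dosage. Of 8 other peptide-modifying enzymes only PAM, which amidates peptides, had one, 12.5%, and this intronic site of 349 bp lay 140140 bp from the 5′ end, with order numbers 2349 and 2617. Among 13 genes for granule membrane proteins, granule formation and priming, 7 (53.8%) had a site in the basal list and 8 (61.5%) in the other. Of these, PTPRN2, CADPS, CADPS2 and RPH3A have windows of over 100 kb, the length class in which 28.0% and 27.4% of protein-coding genes had a site. Within 2 kb of the 5′ end, 4 of these 13 had a site at each dosage, namely PTPRN, PTPRN2, CADPS and SYT4.

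PTPRN, a granule membrane protein and autoantigen in autoimmune diabetes, had intronic sites of 749 and 849 bp at 1195 and 1145 bp from the 5′ end, with a consensus without mismatch. SYT4, a synaptotagmin of granules, had sites of 599 and 649 bp over its 5′ UTR, again without mismatch. PTPRN2, a relative of PTPRN, had sites of 449 and 399 bp over its 5′ UTR, and further intronic sites 33465 to 378165 bp from the 5′ end at the basal dosage. CADPS, which primes granules for release, had 3 basal and 5 increased-dosage sites, of which the one upstream of the 5′ end measured 799 bp at both dosages. Another 2 CADPS sites, 291 and 2041 bp inside the gene, were called at the increased dosage only, and those at 220291 and 345966 bp in the basal list were deep in introns. The 5′ end of the protein-coding gene FEZF2 lay nearer to the site at 345966 bp than that of CADPS did. RPH3A, a granule-associated effector of Rab proteins, had the most sites of this list, 5 and 6. Its site without a basal counterpart measured 99 bp and had order number 4532. For the RPH3A sites 242416 bp or more inside the gene, the 5′ end of the protein-coding gene OAS1 lay nearer. SYT7, a calcium sensor of granule release, had the earliest order number, 24 at both dosages, but its site was 13720 bp and 13820 bp inside the gene. SLC18A2, the vesicular monoamine transporter, had a single intronic site of 149 bp at the increased dosage only. CADPS2 was counted at both dosages through different intronic sites that did not overlap. The basal one measured 199 bp (order number 3653) and the increased-dosage one 99 bp (order number 4704). The lists were chosen with earlier results of these data known, so their counts are descriptions.

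**Figure D5:**
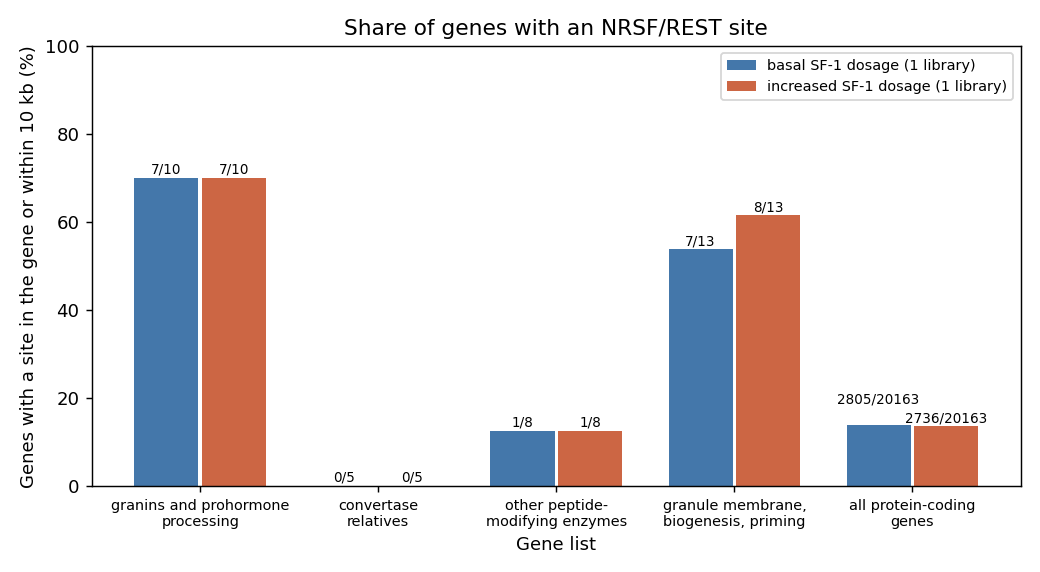
Percent of genes with an NRSF/REST site in the gene or within 10 kb at the basal and the increased SF-1 dosage, for the 10 granin and processing genes, the 3 related lists and all protein-coding genes. The bars start at 0, and the background of all protein-coding genes is 13.9% and 13.6%.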

How the data were processed

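NRSF/REST ChIP-seq was carried out on 1 library per SF-1 dosage. Reads had been aligned by the authors with ELAND on hg19, and the submitters' processing notes list CASAVA 1.6. CisGenome is named in the methods for SF-1 sites, and settings for NRSF/REST sites are not given in the sources used here. The authors deposited 1 list of called sites per library, with a score of 1000 for every site and an order number. The labels and the methods give different doxycycline concentrations, so none is printed.

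Starts were converted to count from 1. Genes were those of GENCODE release 44 on hg19, without the mitochondrial genome. A site was assigned to a gene when they overlapped after 10 kb had been added to both gene ends. An overlap of 1 bp or more made sites shared. Matches to the consensus CTGTCC, 2 free bases, GGTGCTG could lie on either strand and differ at up to 2 of the 13 fixed bases, and were sought in every site and in equally wide windows 10 kb away on both sides. Parts at another distance were searched with 0 to 20 bases between them. Python 3.11.15 was used with pysam 0.24.0, numpy 2.4.6 and scipy 1.17.1. The consensus search and the search for its parts were tested on simulated sequences. The lookup of sites in a window was checked on the basal list, in random windows, against a full search. No test was made between dosages.

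All 10 genes are named with every site, and further genes only where they belong to a related list and have a site or lie nearer to a site. The members and lists were chosen with earlier results of these data known. Alternatives covered the window around genes, the width and order of sites, the overlap rule, the mismatches and the annotated 5′ end. Without read counts, no interval or limit of detection could be given.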

Additional observations from a re-analysis of the deposited data

How the results depend on the processing

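The count of 7 of 10 genes with a site held under every alternative tried, at both dosages. The number of protein-coding genes with a site moved to 618 (basal) and 598 (increased) within 2 kb of the 5′ end, to 637 and 620 with the canonical 5′ end (an alternative added after seeing the data), to 1683 and 1593 with the widest 50% of sites, and to 1663 and 1591 with the first 50% by order. Merging sites within 500 bp left 9 basal and 9 increased-dosage sites at the 10 genes, so the difference in site number between dosages was gone. Requiring midpoints within 100 bp left 8 shared sites at each dosage, and requiring 0 mismatches left 2 sites with the consensus at each. The other alternatives stayed within 1.5 times the reported counts. No paired analysis was possible because there is 1 library per dosage, and for the same reason no library could be left out. Without read counts, the depth behind a missing site is unknown.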
